A study of Mus musculus with 2 samples.

Results

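Fn1, Thbs1, Tnc, Postn, Sparc, Dcn, Tgfbi and Nid1 encode secreted proteins of the extracellular matrix, and their expression was described in the mouse liver tumour line LPC-HRas. These 8 genes were taken by gene symbol from 55487 named records, and each symbol had 1 record. RNA sequencing was carried out on 2 libraries: 1 of cells infected with lentivirus carrying shETV4, a hairpin against the ETS-family transcription factor Etv4, and 1 of cells infected with lentivirus carrying shRFP, the control hairpin. Both groups are the same cell line, both carry the HRas of its name and both went through infection, while neither the time after infection nor the number of hairpin sequences per target is stated in the sources used. With 1 library per group, no difference below has a replicate check, none was tested, and all statements describe these libraries. The question is how the RNA levels of these matrix genes in shETV4 cells compare with those in shRFP cells.

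The extracellular matrix is the protein scaffold outside cells. Fibronectin and nidogen are structural glycoproteins of it that tie collagens, laminins and cell-surface integrins together. Matricellular proteins such as thrombospondin 1, tenascin C, periostin and SPARC bear little load themselves and act on adhesion, migration and growth factor activity. Decorin, a small proteoglycan, coats collagen fibrils and binds growth factors. In injured and tumour-bearing liver much of this matrix is known to come from activated stellate cells and fibroblasts, and tumour cells with mesenchymal features can make it as well.

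Values are TPM, transcript abundances scaled by transcript length and library total. Because they are per length, levels of different genes can be set side by side within a library, but depth and counting error cannot be read from them. The log2 difference of a gene is its log2(TPM + 1) with shETV4 less its log2(TPM + 1) with shRFP, and on this scale changes of genes at low level come out too small. Genes with 1 TPM or more in either library were evaluated, and a gene was called when its log2 difference was 1 or more (higher) or -1 or less (lower). Ratios and folds given with TPM levels were formed without the added 1.

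None of the 8 genes was called. By the same rule 3.39% of the 12968 evaluated genes were called higher and 7.06% lower, so a list of 8 without a call does not stand out from genes at large. Of the 8, 6 lay above 0 and 2 below, beside 5395 above and 7560 below among the 12968 evaluated genes. The 8 had a median difference of 0.30, beside a median of -0.10 over all evaluated genes. Their summed level was 2767 TPM in the shETV4 library and 2245 TPM in the shRFP library, a ratio of 1.23. This was 0.277% of all TPM with shETV4 and 0.224% with shRFP. Fn1, Sparc and Tgfbi supplied 96.2% of the difference in summed level, and the other 5 genes together were at a ratio of 1.05. Etv4 itself was at 16.2 TPM with shETV4 and 73.2 TPM with shRFP. Cell types cannot be counted in bulk RNA, where fewer cells of a type and less RNA per cell cannot be told apart.

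**Figure D1:**
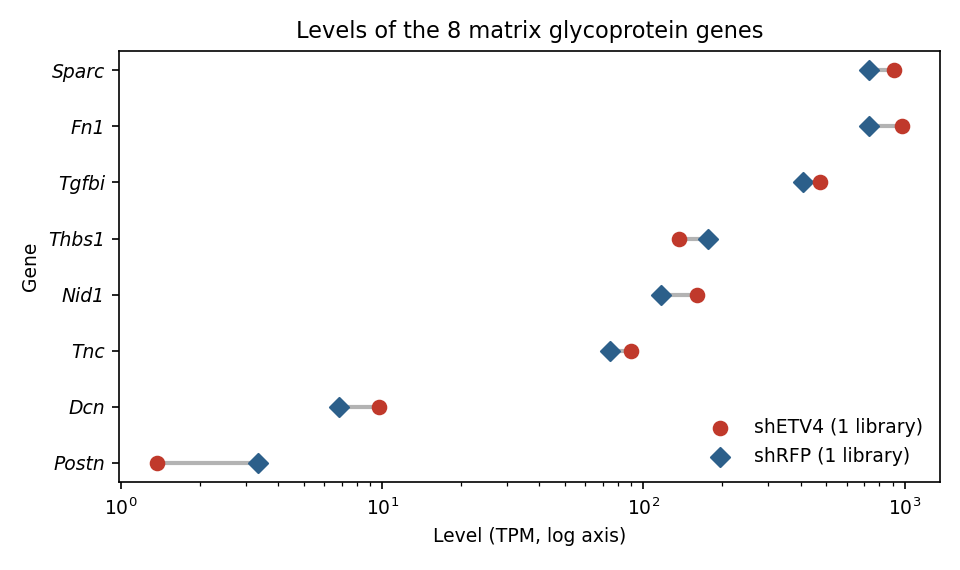
Level of each of the 8 genes in TPM on a log axis, with the shETV4 library as red circles and the shRFP library as blue diamonds, 1 library each and no error bars. Fn1, Sparc and Tgfbi lie at 407 TPM or more in both libraries, while Dcn and Postn lie below 10 TPM in both.

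The genes spread widely in level, with Fn1 at 716 times the level of Postn in the shETV4 library and 218 times in the shRFP library. Fn1 and Sparc alone made up 68.4% of the summed level of the 8 in the shETV4 library and 65.0% in the shRFP library. With Tgfbi the shares were 85.6% with shETV4 and 83.1% with shRFP. The order from the highest level down was Fn1, Sparc, Tgfbi, Nid1, Thbs1, Tnc, Dcn and Postn in the shETV4 library. In the shRFP library Sparc and Fn1 stood level and Thbs1 stood above Nid1. With 1 library a group, the spread that would tell neighbours in this order apart is unknown.

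Among the structural glycoproteins, Fn1 encodes fibronectin, which cells assemble into fibrils through integrin alpha 5 beta 1 and which binds collagen and heparan sulphate. It was at 981.55 TPM in the shETV4 library and 728.97 TPM in the shRFP library, 1.35-fold higher and 253 TPM apart, a log2 difference of 0.43. That was the largest difference of the 8 in TPM. The gene (ENSMUSG00000026193) lies in GRCm38 on chromosome 1, minus strand, from 71585520 to 71653200, with up to 46 exons in 17 annotated transcripts. Fibronectin is known for alternatively spliced exons, and a value per gene does not separate those forms.

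Nid1 encodes nidogen 1, which links the laminin and collagen IV networks of basement membranes. Its level was 160.19 TPM with shETV4 and 117.19 TPM with shRFP, a ratio of 1.37 and a log2 difference of 0.45. The gene (ENSMUSG00000005397) spans 13437551 to 13512269 on the plus strand of chromosome 13. Its relative Nid2 stood the other way, at 26.67 TPM with shETV4 and 33.32 TPM with shRFP, so that Nid1 was 6.01 times the level of Nid2 in the shETV4 library and 3.52 times in the shRFP library. Lamc1, the laminin chain to which nidogen binds, was at 187 TPM with shETV4 and 193 TPM with shRFP.

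Of the matricellular genes, Sparc was the most abundant. It encodes a collagen-binding protein, also called osteonectin, that takes part in collagen deposition. Sparc (ENSMUSG00000018593, chromosome 11, 55394500 to 55423183, minus strand) was at 911.44 TPM with shETV4 and 729.41 TPM with shRFP, 1.25-fold higher, with a log2 difference of 0.32. In the shRFP library the levels of Fn1 and Sparc were nearly equal, at a ratio of 0.999, and in the shETV4 library the ratio was 1.08. Of its 7 family members, Fstl1 was at 183 TPM with shETV4 and 217 TPM with shRFP, while Sparcl1, the closest relative, stayed below 1 TPM in both.

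Tnc encodes tenascin C, a large multi-armed protein of injured and tumour stroma that modulates adhesion to fibronectin. It was at 90.03 TPM with shETV4 and 74.29 TPM with shRFP, a ratio of 1.21 and a log2 difference of 0.27. Tnc (ENSMUSG00000028364) occupies 63959785 to 64047015 on the minus strand of chromosome 4. The other tenascins were near the floor of evaluation: Tnxb was at 3.43 TPM with shETV4 and 1.76 TPM with shRFP. Tnc was the main tenascin transcript of both libraries.

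Thbs1 stood on the other side of 0. It encodes thrombospondin 1, an adhesive protein that binds CD47 and CD36, restrains blood vessel growth and can release TGF-beta from its latent complex. Its level was 137.33 TPM with shETV4 and 177.02 TPM with shRFP, 1.29-fold lower, with a log2 difference of -0.36. The gene (ENSMUSG00000040152) lies at 118111876 to 118127133 on the plus strand of chromosome 2. The sister gene Thbs2, which encodes a thrombospondin with similar domains, was at 1.90 TPM with shETV4 and 0.79 TPM with shRFP. Thbs3, of another thrombospondin subgroup, was at 84.0 TPM with shETV4 and 74.8 TPM with shRFP. Cd47 was at 75.3 TPM with shETV4 and 89.1 TPM with shRFP, and Cd36 was listed at 0 in both libraries.

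Tgfbi and Postn are paralogs built of fasciclin domains, and they lay far apart in level and on opposite sides of 0. Tgfbi encodes a TGF-beta-induced adhesive protein that binds collagen and integrins. It was at 475.57 TPM with shETV4 and 407.47 TPM with shRFP, a ratio of 1.17 and a log2 difference of 0.22, the smallest of the 8 in size on the deposited scale. Postn encodes periostin, a fibroblast product that promotes collagen cross-linking and is named for its periosteal expression. It was at 1.37 TPM with shETV4 and 3.35 TPM with shRFP, 2.45-fold lower as a plain ratio. On the log2(TPM + 1) scale this was -0.88 and inside 2-fold, and both levels are close to the 1 TPM limit. With a pseudocount of 0.1 it was at -1.23 and called lower, as were 11.3% of evaluated genes, and at a 1.5-fold threshold it was also past the limit downward, with 20% of evaluated genes. The level of Tgfbi was 347 times that of Postn in the shETV4 library and 122 times in the shRFP library. Tgfbi (ENSMUSG00000035493) lies on chromosome 13 at 56609523 to 56639562 and Postn (ENSMUSG00000027750) on chromosome 3 at 54361109 to 54391037, both on the plus strand.

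Since the hairpin is aimed at an ETS factor, the promoters of these paralogs and of Nid1 are shown with letters of the ETS motif. The RefSeq table on GRCm38.p6 held 5 of the 8 genes; Fn1, Thbs1 and Dcn had no entry. The windows are the 250 bases before the RefSeq start, 5′ to 3′ on the gene's strand, at chr13:56609336-56609585 for Tgfbi, chr3:54360857-54361106 for Postn and chr13:13437352-13437601 for Nid1. Capitals mark the ETS motifs AGGAAG and CGGAAG, the GC box GGGCGG and the TATA box TATAAA, each searched on both strands, so that CTTCCT marks AGGAAG on the opposite strand.
Tgfbi promoter: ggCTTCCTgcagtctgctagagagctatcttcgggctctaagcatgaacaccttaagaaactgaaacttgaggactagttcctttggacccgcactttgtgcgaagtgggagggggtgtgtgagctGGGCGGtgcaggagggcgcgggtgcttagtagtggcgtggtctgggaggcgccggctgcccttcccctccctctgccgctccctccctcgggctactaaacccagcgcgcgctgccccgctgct
Postn promoter: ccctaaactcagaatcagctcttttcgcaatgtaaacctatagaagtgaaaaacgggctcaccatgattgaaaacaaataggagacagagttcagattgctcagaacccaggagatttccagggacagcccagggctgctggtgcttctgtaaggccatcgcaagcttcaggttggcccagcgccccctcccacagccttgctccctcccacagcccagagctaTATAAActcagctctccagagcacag
Nid1 promoter: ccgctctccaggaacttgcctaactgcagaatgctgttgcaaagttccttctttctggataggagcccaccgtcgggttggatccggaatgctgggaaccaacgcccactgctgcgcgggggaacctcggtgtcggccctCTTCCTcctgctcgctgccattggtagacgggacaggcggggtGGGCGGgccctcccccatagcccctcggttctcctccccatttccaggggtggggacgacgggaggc

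AGGAAG stood 1 time each in the Tgfbi window, beginning 248 bases before the start, and in the Nid1 window, 110 bases before it, both on the strand opposite the gene. Neither ETS motif was in the Postn, Tnc or Sparc window, and CGGAAG was in none of the 5. Both windows with an ETS motif are thus among those printed, while the Tnc and Sparc windows are not printed. Among all 32851 RefSeq promoter windows of this length, 29.5% held AGGAAG, 13.6% held CGGAAG and 39.2% held at least 1 of them, so 2 of 5 lies close to the share of promoters at large. The GC box was in the Tgfbi, Nid1 and Tnc windows and in 32.7% of all windows. TATAAA stood 26 bases before the Postn start and was also in the Tnc window, against 12.4% of all windows. These are matches of letters in a window and not binding sites. GENCODE places the start of Tgfbi 63 bases and that of Nid1 51 bases upstream of the RefSeq start used here, and for Sparc the starts lie 3103 bases apart, so the Sparc window is not the one before the GENCODE start.

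Dcn encodes decorin, a leucine-rich proteoglycan that binds TGF-beta and receptor tyrosine kinases, Met and Egfr among them. It was at 9.76 TPM with shETV4 and 6.81 TPM with shRFP, a ratio of 1.43, the highest of the 8, and a log2 difference of 0.46. The gene (ENSMUSG00000019929) lies at 97479609 to 97518143 on the plus strand of chromosome 10. Its closest relative Bgn, the biglycan gene, was far more abundant at 1823 TPM with shETV4 and 1546 TPM with shRFP, 187 times the level of Dcn with shETV4 and 227 times with shRFP. Lum, the lumican gene of the same family, was at 0.05 TPM with shETV4 and listed at 0 with shRFP.

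**Figure D2:**
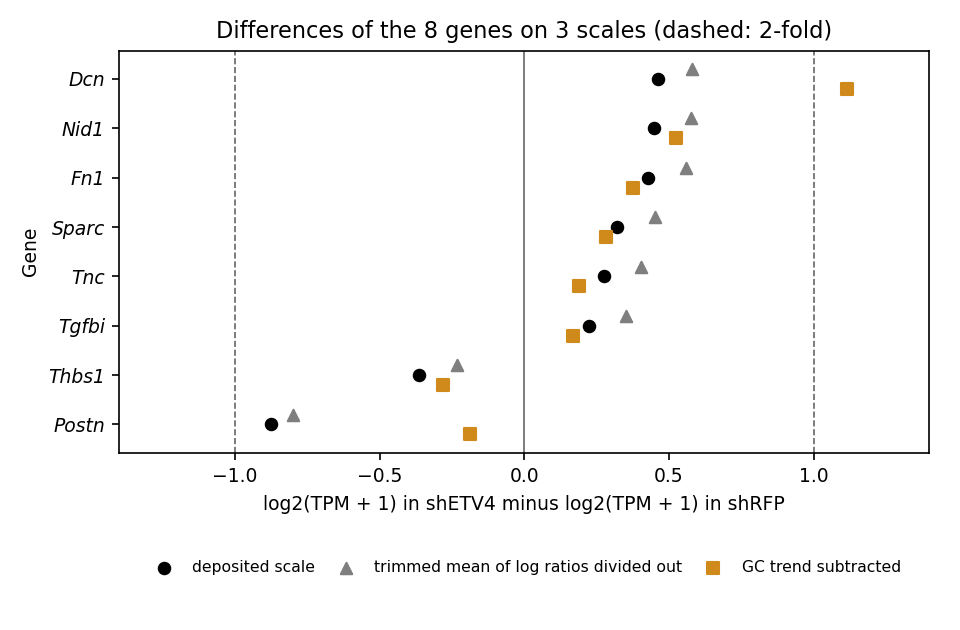
Difference in log2(TPM + 1), shETV4 minus shRFP, for each of the 8 genes on the deposited scale (circles), with the trimmed mean of log ratios divided out (triangles) and with the GC trend subtracted (squares); dashed lines mark 2-fold. No gene changes side of 0 between the scales, Dcn passes 2-fold upward at 1.11 with the GC trend subtracted, and Postn moves to -0.19 with it.

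Scale and base composition of the whole data set touch these values. The trimmed mean of log ratios over genes above 0 in both libraries lay at -0.13, a shift that lowers all differences on the deposited scale. Relative to it the differences were 0.58 for Dcn and Nid1, 0.56 for Fn1, 0.45 for Sparc, 0.40 for Tnc, 0.35 for Tgfbi, -0.23 for Thbs1 and -0.80 for Postn, with none past 2-fold. Among all genes, calls upward made up 32.4% of all calls on the deposited scale, 45.0% with the trimmed mean divided out and 63.3% with the GC trend subtracted. Differences also followed base composition, with a rank correlation of 0.52 with transcript GC content across 12947 genes, which are not independent replicates.

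Postn and Dcn had the lowest GC content of the 8, 42.1% and 42.4%, while the other 6 lay between 50.4% and 53.8%, near the median of 50.7% over evaluated genes. Genes with the GC content of Postn had a running median difference of -0.69 and those with that of Dcn -0.65. After this trend was subtracted Postn was at -0.19, inside the bulk of genes, with 30.3% of them below it, against 9.91% before. Dcn was at 1.11 after subtraction, called higher, with 96.7% of genes below it, against 87.9% before. By that rule 4% of genes were called higher and 2.32% lower. For the other 6 genes the running median was between -0.083 and 0.086, so that their values moved little; Nid1, for example, came to 0.53.

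**Figure D3:**
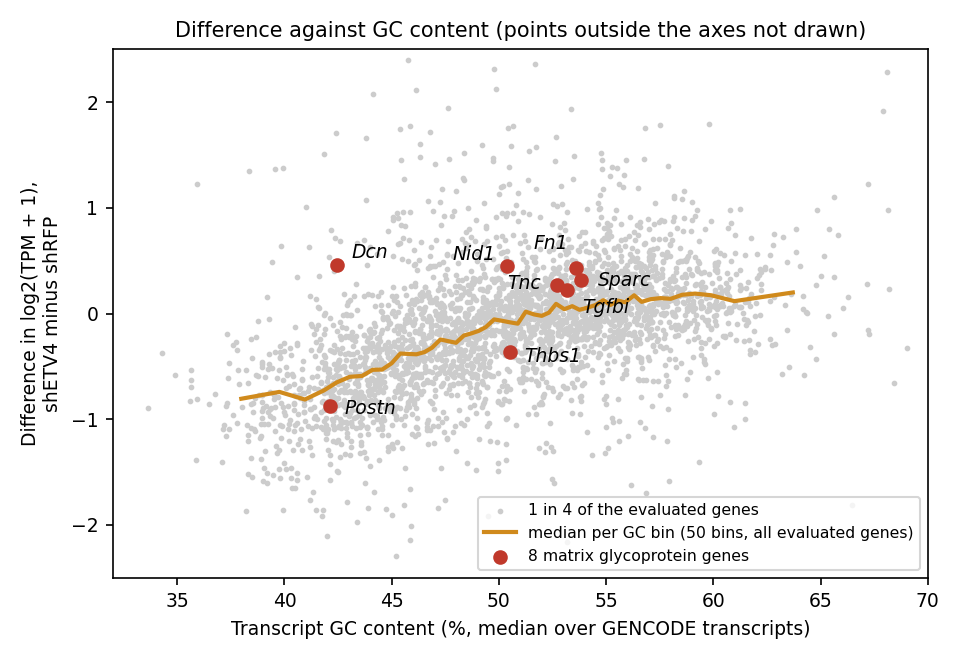
Difference in log2(TPM + 1), shETV4 minus shRFP, against the GC content of transcripts, with 1 in 4 of the evaluated genes in grey, the median over 50 bins of all evaluated genes as a line and the 8 genes in red. Postn lies near the line at its GC content, while Dcn lies above it, at 0.46 where the line is at -0.65.

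On the deposited scale the 6 genes above 0 exceeded between 76.0% (Tgfbi) and 87.9% (Dcn) of evaluated genes, and Thbs1 exceeded 31.3%. With the GC trend subtracted the 6 exceeded between 67.0% (Tgfbi) and 96.7% (Dcn), and Thbs1 exceeded 22.7%. Postn exceeded 9.91% on the deposited scale and 30.3% with the GC trend subtracted. The 6 genes, grouped by their side of 0, are thus in the upper part of the distribution but, apart from Dcn after GC adjustment, short of 2-fold. Thbs1 and Postn are in the lower part. At most 3.42% of the exonic bases of any of the 8, the value of Thbs1, overlap exons of other genes, both strands counted.

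Related genes of the matrix were read by the same rule, by which 3.39% of all evaluated genes were called higher and 7.06% lower. These shares are the background for each list below. Of 27 relatives of the 8 genes, 13 were evaluated, 1 was called higher and 1 lower, with a median of 0.24, and 0.38 with the GC trend subtracted. Prelp, a leucine-rich proteoglycan gene, was at 2.66 TPM with shETV4 and 0.28 TPM with shRFP. Ogn, which encodes osteoglycin, was at 0.19 TPM with shETV4 and 1.66 TPM with shRFP, and at -0.35 after GC adjustment. Both calls rest on a level under 1 TPM in 1 of the libraries. The remaining 14 relatives, Lum and Sparcl1 among them, did not reach 1 TPM, and 6 of these were listed at 0 in both.

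Of 11 other matricellular genes, 10 were evaluated, none was called higher and 1 was called lower, with a median of 0.082, and 0.33 with the GC trend subtracted. Ccn4, also known as Wisp1, a secreted protein of the CCN family and a known Wnt target, was at 6.99 TPM with shETV4 and 30.3 TPM with shRFP, a difference of -1.97, and -2.09 after GC adjustment. Ccn1, an integrin-binding protein, was at 137 TPM with shETV4 and 238 TPM with shRFP. The CCN family was looked at after its values were seen. Of its 6 genes 5 were evaluated, 4 below 0 and 1 above, beside 7560 of 12968 evaluated genes below 0. The median of the 5 was -0.79, and -0.87 with the GC trend subtracted, beside -0.10 over all evaluated genes on the deposited scale. Ccn3 is among the 4 only by -0.0040, at 9.88 TPM with shETV4 and 9.91 TPM with shRFP. It lay above 0 with the median ratio set to 1 (0.058), the trimmed mean divided out (0.11) and the GC trend subtracted (0.49). Lgals1 and Lgals3 encode galectins, lectins that bind matrix glycoproteins. Lgals1 was at 4415 TPM with shETV4 and 3460 TPM with shRFP, and Lgals3 at 303 TPM with shETV4 and 171 TPM with shRFP. Spp1, the osteopontin gene, was at 476 TPM with shETV4 and 423 TPM with shRFP.

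Of 35 other matrix glycoprotein and large proteoglycan genes, 27 were evaluated, 1 was called higher and none lower, with a median of -0.039. Lama4, a laminin chain of vessel and mesenchymal basement membranes, was at 3.95 TPM with shETV4 and 0.47 TPM with shRFP. This call, too, rests on a level under 1 TPM in the shRFP library. With pseudocount 5, or with 5 TPM required, 0 genes of the list were called higher. Those at the highest level lay within 2-fold: Fbln2, the fibulin 2 gene, was at 614 TPM with shETV4 and 643 TPM with shRFP. Igfbp7 was at 256 TPM with shETV4 and 202 TPM with shRFP. Hspg2, the perlecan gene, was at 218 TPM with shETV4 and 191 TPM with shRFP.

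**Figure D4:**
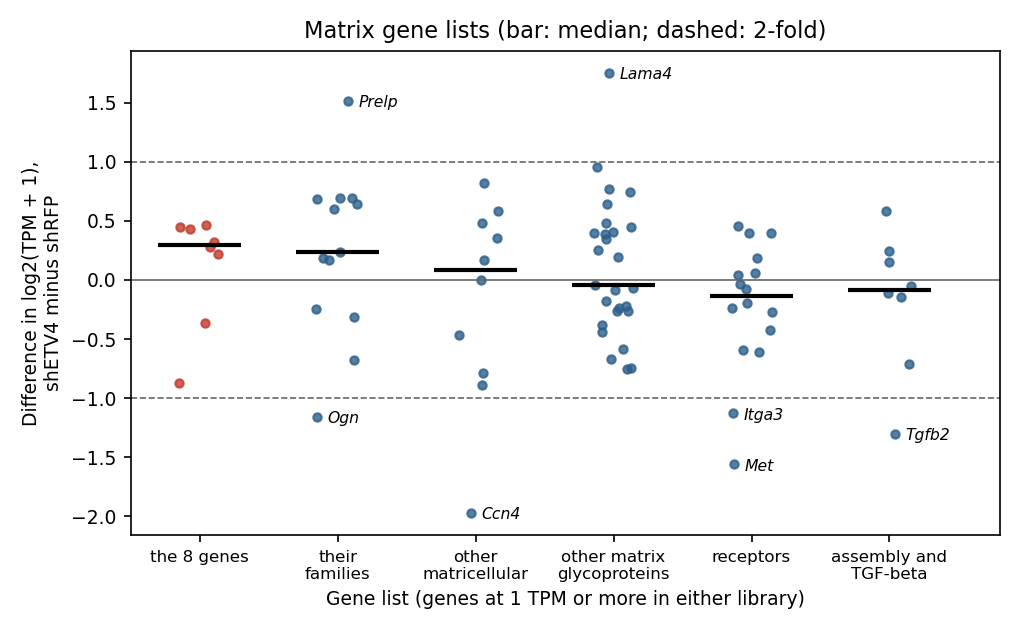
Difference in log2(TPM + 1), shETV4 minus shRFP, of each evaluated gene in the 8 genes (red) and 5 related lists (blue), with the median of each list as a bar and 2-fold as dashed lines; genes past 2-fold are named. The 8 genes have a median of 0.30 and no member past 2-fold, and 7 of the 74 related genes are past it, beside 10.4% of all evaluated genes.

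Receptors were described because several bind the proteins above. Of 20 receptor genes, 16 were evaluated, none was called higher and 2 were called lower, with a median of -0.14. Met, the hepatocyte growth factor receptor, was at 6.07 TPM with shETV4 and 19.8 TPM with shRFP, and Itga3, the alpha chain of a laminin-binding integrin, at 28.6 TPM with shETV4 and 63.7 TPM with shRFP. Itgb1, the beta chain shared by the main fibronectin and laminin receptors, was at 212 TPM with shETV4 and 324 TPM with shRFP, within 2-fold and at -0.14 after GC adjustment. Itgb5, a partner chain of integrin alpha V, was at 160 TPM with shETV4 and 122 TPM with shRFP. The hyaluronan receptor gene Cd44 and the endocytic receptor gene Lrp1 differed by less than 0.1 on the log2 scale, Cd44 at 215 TPM with shETV4 and 221 TPM with shRFP and Lrp1 at 160 TPM with shETV4 and 170 TPM with shRFP.

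Of 9 genes of matrix assembly and TGF-beta signalling, 8 were evaluated, none was called higher and 1 was called lower, with a median of -0.082. Tgfb2, a TGF-beta ligand, was at 2.33 TPM with shETV4 and 7.20 TPM with shRFP. Tgfb1, the ligand for which Tgfbi is named as an induced gene, was at 74.5 TPM with shETV4 and 49.55 TPM with shRFP, and its receptor gene Tgfbr2 at 26.8 TPM with shETV4 and 29.0 TPM with shRFP. Bmp1, a protease that processes matrix precursors, was at 82.05 TPM with shETV4 and 69.1 TPM with shRFP. Over all 102 related genes, 74 were evaluated, 2 called higher and 5 lower, with 36 above 0 and 38 below. Among all evaluated genes 5395 lay above 0 and 7560 below.

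Genes of like level were sought by the distance between genes in log2(TPM + 1) over both libraries, among 73 genes of the families, matricellular and glycoprotein lists. With only 2 libraries this distance follows level more than change, so a near gene need not share the direction of the difference. Spp1 was nearest to Tgfbi at a distance of 0.054 and Thbs3 nearest to Tnc at 0.10. Matn2, a matrilin gene, was nearest to Dcn at 0.17, Efemp2 to Thbs1 at 0.22 and Agrn, the agrin gene, to Nid1 at 0.24. Fbln2 was the nearest to both Sparc and Fn1, at 0.60 and 0.70, though its own log2 difference was -0.068 and theirs lay above 0. Postn had no close neighbour, the nearest being Tnxb at 1.12, which lay on the other side of 0 at a log2 difference of 0.68.

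The label calls the cells hepatocellular carcinoma cells of liver, but of 8 defining hepatocyte genes none reached 1 TPM, and Alb, Cyp3a11, Fgb and Tat were listed at 0 in both libraries. Of 8 progenitor and biliary markers 4 were evaluated, among them Sox9 at 45.4 TPM with shETV4 and 28.0 TPM with shRFP and Krt19 at 36.3 TPM with shETV4 and 27.5 TPM with shRFP, whereas Epcam and Afp stayed under 1 TPM. The called gene of that list was lower: Cd24a, a surface glycoprotein gene, was at 55.5 TPM with shETV4 and 132 TPM with shRFP, a difference of -1.23, and -1.16 after GC adjustment. Fibroblast and stellate cell markers, which share the matrix programme, were partly present. Of 12, 5 were evaluated and all 5 lay above 0, between 0.19 and 0.40, with a summed level of the 12 of 335 TPM with shETV4 and 281 TPM with shRFP. Most of that was Col1a1, at 229 TPM with shETV4 and 200 TPM with shRFP, and Pdgfrb, at 77.2 TPM with shETV4 and 59.5 TPM with shRFP, while the stellate genes Lrat and Gfap were listed at 0 in both. Of the 5 evaluated, Col1a2 was at 1.55 TPM with shETV4 and 1.24 TPM with shRFP, close to the 1 TPM limit. Cygb was close to it too, at 1.63 TPM with shETV4 and 1.27 TPM with shRFP. With the GC trend subtracted the 5 were at 0.030 (Cygb), 0.032 (Col1a1), 0.26 (Pdgfrb), 0.38 (Pdgfra) and 0.57 (Col1a2), so Cygb and Col1a1 lay near 0. The 5 evaluated markers lay on the same side of 0 as 6 of the 8 genes, and their part in the result was not tested. Endothelial markers summed to 19.8 TPM with shETV4 and 14.0 TPM with shRFP, nearly all Egfl7, with Cdh5, Tek and Lyve1 listed at 0 in both. Immune markers summed to 17.3 TPM with shETV4 and 9.75 TPM with shRFP, mostly Cd14, with Adgre1, Clec4f, Cd3e and Cd79a listed at 0 in both.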

How the data were processed

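Total RNA went into TruSeq libraries, per the labels' protocols. The authors deposited TPM, 1 value per gene and library; the unit was inferred from totals of 999870.3 for shETV4 and 999999.77 for shRFP, as the headers name none. Both column names carry the suffix _2, whose meaning (a replicate, a run) is not stated. The submitters' processing notes name HISAT2, RSEM and GRCm38.p4 without roles. The 153 records without a symbol were left out.

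GENCODE M21 (GRCm38), matched for 99.4% of named records, gave coordinates, exons and transcript GC content, taken as the median over transcripts. The GC trend was the median difference in 50 bins, interpolated. The trimmed mean dropped 30% of log ratios and 5% of mean levels at each end. Alternatives changed the pseudocount (0.1, 5), filter (none, 5 TPM), threshold (1.5-fold, 3-fold), scale (trimmed mean, or the median ratio over genes with 5 TPM in both), GC adjustment, gene set and row per symbol; summing rows left the values of the 8 as they were. The 8 genes and all lists were chosen with earlier results of these data known. Named genes are the 8, their closest relatives, the called genes of each related list and its 4 at the highest level, nearest neighbours and some of the markers; Cd47, Cd36 and the genes first named in the closing section were chosen after their values were seen. Calls and GC subtraction were tested on simulated data. Changes were planted there only in genes at levels well above those of Dcn and Postn, so the test does not cover these genes. The planted changes were also larger than the differences of the 8. Software was Python 3.11.15 with matplotlib 3.10.9, numpy 2.4.6, pandas 2.3.3 and scipy 1.17.1.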

Additional observations from a re-analysis of the deposited data

How the results depend on the processing

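All 8 genes kept their side of 0 under every alternative run, but most alternatives could not have changed it. A change of pseudocount, filter, threshold or row per symbol leaves the side of these genes fixed. Only the changes of scale and the GC adjustment could have moved a gene across 0. Fn1, Nid1, Sparc, Tnc, Tgfbi and Thbs1 stayed inside 2-fold in all of them, and Fn1 ranged from 0.37 to 0.56. Postn was called lower with pseudocount 0.1 (-1.23) and at 1.5-fold (-0.88), each making 1 gene of the 8 lower, and Dcn was called higher with the GC trend subtracted (1.11), making 1 higher; with 5 TPM required Postn was not evaluated. Of related genes, 74 of them evaluated by the main rule, 5 were called higher with pseudocount 0.1, 0 higher and 3 lower with pseudocount 5, 0 higher with 5 TPM required, 12 higher and 15 lower at 1.5-fold, and 1 higher and 1 lower at 3-fold. Over all evaluated genes 5.2% were higher with pseudocount 0.1, and 1.29% higher and 2.06% lower with pseudocount 5. With 5 TPM required 2.5% were higher. At 1.5-fold 8.61% were higher and 20% lower, and at 3-fold 1.25% each way. The median of the related genes, -0.021, turned to 0.044 with the median ratio set to 1, 0.10 with the trimmed mean divided out and 0.074 with the GC trend subtracted. For other matrix glycoproteins the median turned to 0.028, 0.090 and 0.067 in the same order and to 0.075 with 5 TPM required, for receptors to 0.072 with the GC trend subtracted and for assembly and TGF-beta genes to 0.042 with the trimmed mean divided out. The median of other matricellular genes, 0.082, was 0 without a filter and came to 0.15 with the median ratio set to 1 and 0.21 with the trimmed mean divided out; that of the families was 0 without a filter. Of 90 counts of the single lists, which lay between 0 and 6, 24 moved by over 1.5 times or to or from 0. Over all genes the calls were 439 higher and 916 lower, against 674 and 1459 with pseudocount 0.1, 167 and 267 with pseudocount 5, 1117 and 2591 at 1.5-fold and 162 and 162 at 3-fold; 252 were higher with 5 TPM required and 300 lower with the GC trend subtracted. Of protein-coding genes 8.53% were called, beside 10.4% of all. The cause of these shifts was not tested beyond what each setting changes. No paired analysis was possible because each group has 1 library, and leaving out a library was not possible either. Depth is unknown, so the precision of the lowest levels, Postn above all, cannot be given.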

Other observations

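Laminins, the partners of nidogen in basement membranes, were looked at after their values were seen. Of 11 laminin chain genes 6 were evaluated, and 5 of these lay below 0, with a median of -0.25, beside 7560 of 12968 evaluated genes below 0 and a median of -0.10. Lamc1 is among the 5 at -0.039, and lay above 0 with the median ratio set to 1 (0.028), the trimmed mean divided out (0.090) and the GC trend subtracted (0.33). Lama5, the alpha chain of epithelial basement membranes, was at 46.5 TPM with shETV4 and 78.45 TPM with shRFP. Lamb1 was at 73.8 TPM with shETV4 and 100.3 TPM with shRFP. The sixth, Lama4, was the list's called gene. Relative to Lamc1 in the same library, Nid1 was at a ratio of 0.855 with shETV4 and 0.609 with shRFP. Agrn, the gene of the laminin-binding proteoglycan agrin, was at 173 TPM with shETV4 and 101 TPM with shRFP. No laminin apart from Lama4 passed 2-fold, and Lama4 was at only 0.47 TPM with shRFP.

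Ecm1, a secreted matrix glycoprotein gene known in liver for restraint of latent TGF-beta, was at 223 TPM with shETV4 and 114 TPM with shRFP, a difference of 0.95. This was inside 2-fold on the deposited scale and with the GC trend subtracted (0.80), and past it with the trimmed mean divided out (1.08) and with the median ratio set to 1 (1.02). Ltbp3, which encodes a latent TGF-beta binding protein, was at 97.3 TPM with shETV4 and 57.9 TPM with shRFP, while its relative Ltbp1 was at 84.8 TPM with shETV4 and 99.3 TPM with shRFP. The 4 genes of that family had a median difference of 0.085.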
